A study of Homo sapiens with 6 samples.

Results

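The genes described here are 51 factors of DNA repair other than homologous recombination: base excision, nucleotide excision, mismatch repair, end joining, translesion synthesis and direct reversal. They were taken by gene name from the 58735 genes of the count table, and each name matched 1 row. RNA was sequenced in SKOV3ip1 cells, a cultured human ovarian adenocarcinoma line derived from SKOV3. One group of 3 libraries came from cells given 2 µg of BARD1 siRNA with a cationic lipid, and the other group of 3 from cells given 2 µg of control siRNA with the same lipid. All 6 cultures carry the genotype label WT, were grown in serum-containing medium and were collected 48 h after transfection. The labels number 3 biological replicates per group but do not say whether they were transfected separately, so the tests reflect only how far these cultures differ, which may be technical. Their tissue field says tumors, while titles and protocols describe cultured cells. All cultures come from 1 line, and the labels do not say how many siRNAs against BARD1 were used.

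These pathways remove damage that leaves the other DNA strand intact, rejoin broken ends, or let replication pass a lesion. In base excision repair a DNA glycosylase cuts out a damaged base, APEX1 opens the strand, POLB fills the gap and LIG3 with XRCC1 seals it. Nucleotide excision repair cuts out a stretch of DNA around a bulky lesion, mismatch repair corrects replication errors, and end joining ligates broken ends held by the Ku heterodimer. BARD1, the silenced gene, is the partner of BRCA1 in homologous recombination and belongs to none of these groups.

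BARD1 itself was counted 805, 644 and 887 times in the control siRNA libraries and 96, 110 and 169 times in the BARD1 siRNA libraries. The groups did not overlap, and expression was 5.98-fold lower with BARD1 siRNA (log2 fold change −2.58, SE 0.14, adjusted p = 1.21e-15). Library totals ranged from 16621108 to 17743404 counts. Levels are given as CPM, counts scaled to a common library size. The 10 epithelial and ovarian marker genes summed to 4297 to 4690 CPM in control and 4395 to 4511 CPM in BARD1-silenced cultures, but their members differed. Of 8 tested, PAX8 (log2 fold change 0.75, 350 ± 12 to 589 ± 17 CPM) and KRT18 (0.40) rose, KRT7 (−0.98), KRT19 (−0.60), EPCAM (−0.24) and ERBB2 (−0.14) fell, and KRT8 and CDH1 were not called (mean ± SD, n = 3). CDH1, which encodes E-cadherin, had 38 and 17 counts over the groups, and MUC16 and WT1 had at most 25 and were not tested. The part of these marker changes in the results below was not tested. Summed over 6 genes, endothelial markers reached 0.166 to 0.968 CPM in control and 0.237 to 0.369 CPM in silenced cultures, and EMCN had 0 counts in all 6 libraries. Leukocyte markers reached 0.61 to 1.25 and 0.23 to 0.308 CPM, with PTPRC, CD3E, CD68 and LYZ at 0 in all libraries. Fibroblast markers, mainly COL3A1, summed to 26.1 to 27.6 CPM with control siRNA and 17.1 to 22.8 CPM with BARD1 siRNA; their part in the results below was not tested.

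Of the 51 repair genes 50 had enough counts for a test, and 22 of these changed: 17 fell and 5 rose with BARD1 siRNA. Changes were moderate, the largest being a 1.95-fold fall of POLH and a 1.51-fold rise of TDG, and no member reached a 2-fold change. Among the genes that fell were the 3 subunits of the DNA-dependent protein kinase (PRKDC, XRCC5 and XRCC6), the break sensor PARP1, the ultraviolet damage genes POLH and DDB2, and the uracil glycosylase UNG. The 5 that rose were TDG, MPG, POLM, ERCC1 and RAD23B. Changed means an adjusted p under 0.05 in the edgeR quasi-likelihood test over all 15271 genes tested. By the same rule 42.3% of all tested genes were called, 20.3% lower and 22% higher, against 44% of the repair genes, 34% lower and 10% higher. The share called was thus near the background, while the split between directions was not even: the median log2 fold change was −0.17 over the 50 repair genes and −0.01 over all genes tested. With upper-quartile scaling 27 repair genes fell and 5 rose, and the share of higher genes among all called went from 51.9% to 41.5%. The repair genes were chosen with earlier results of these data known, so these shares only describe them. In bulk RNA, fewer cells of a kind and less RNA per cell cannot be told apart.

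The groups did not overlap for 32 of the 50 tested repair genes (64%), or for 50.4% of all genes tested. This share rises with level. Below 100 CPM it was 56.1% of the 41 tested members, against 58.5% of all genes at 10 to 100 CPM. At 100 CPM or more it was all 9 members, against 69.8% of all genes. Among the 22 called genes the groups did not overlap for 21, ERCC4 being the exception. The 28 that were not called included 19 with a negative and 9 with a positive log2 fold change, and 11 of them did not overlap between the groups. Of the 22 calls, 18 were kept with the same direction in every one of 16 alternative analyses. The other 4 were ERCC4, MUTYH, NTHL1 and MGMT, and no called gene changed direction in any of them.

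**Figure D1:**
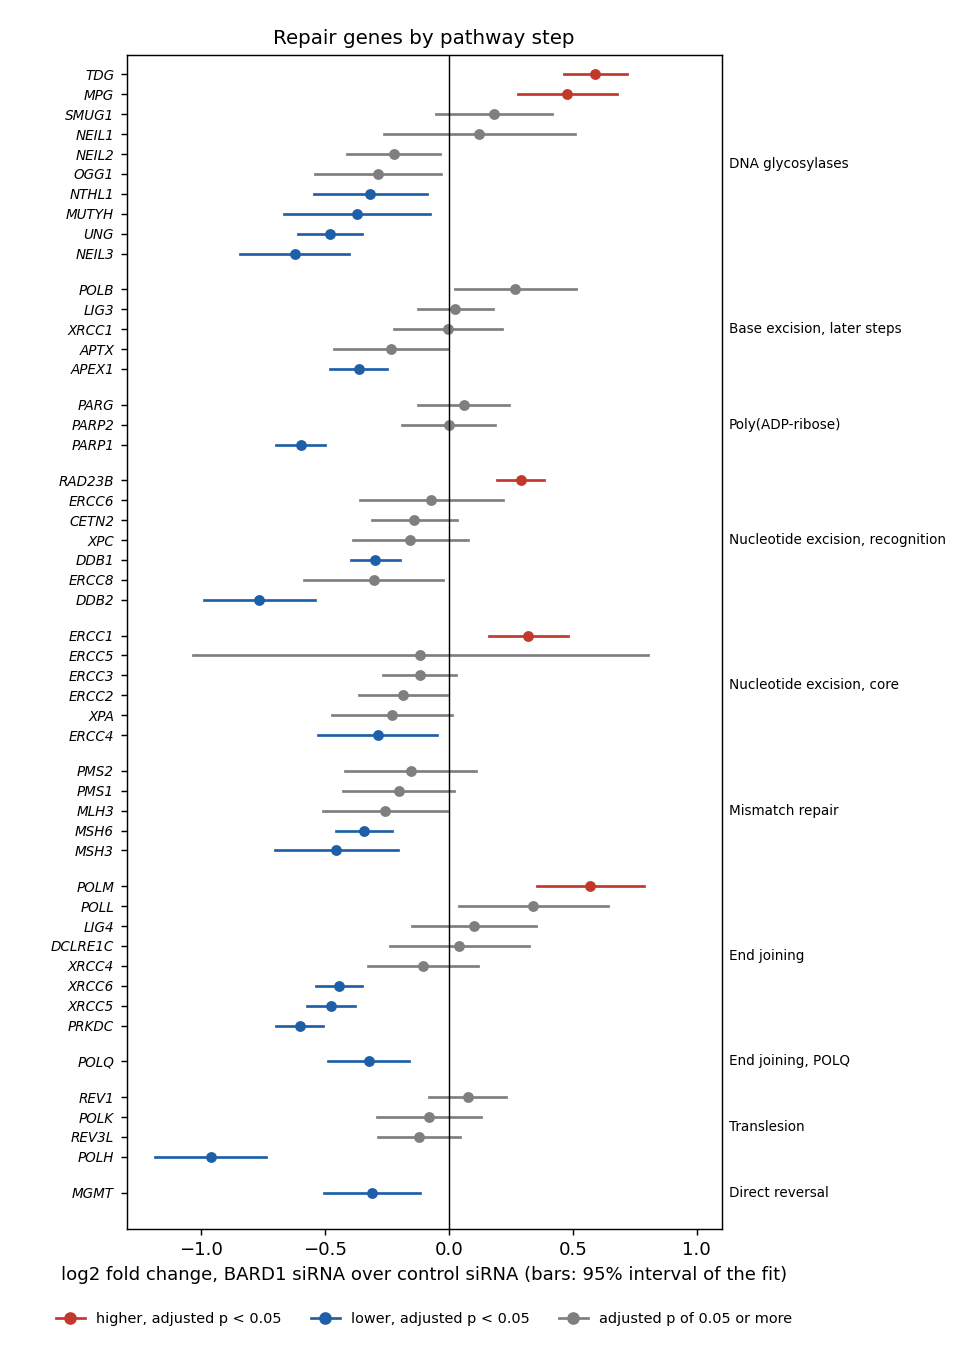
Log2 fold change (x axis, BARD1 siRNA over control siRNA) of the 50 tested repair genes, grouped by pathway step (y axis). Points are fitted values, bars their 95% intervals, and colours show the edgeR call: 17 genes lie below 0 in blue, 5 above 0 in red and 28 in grey were not called.

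**Figure D2:**
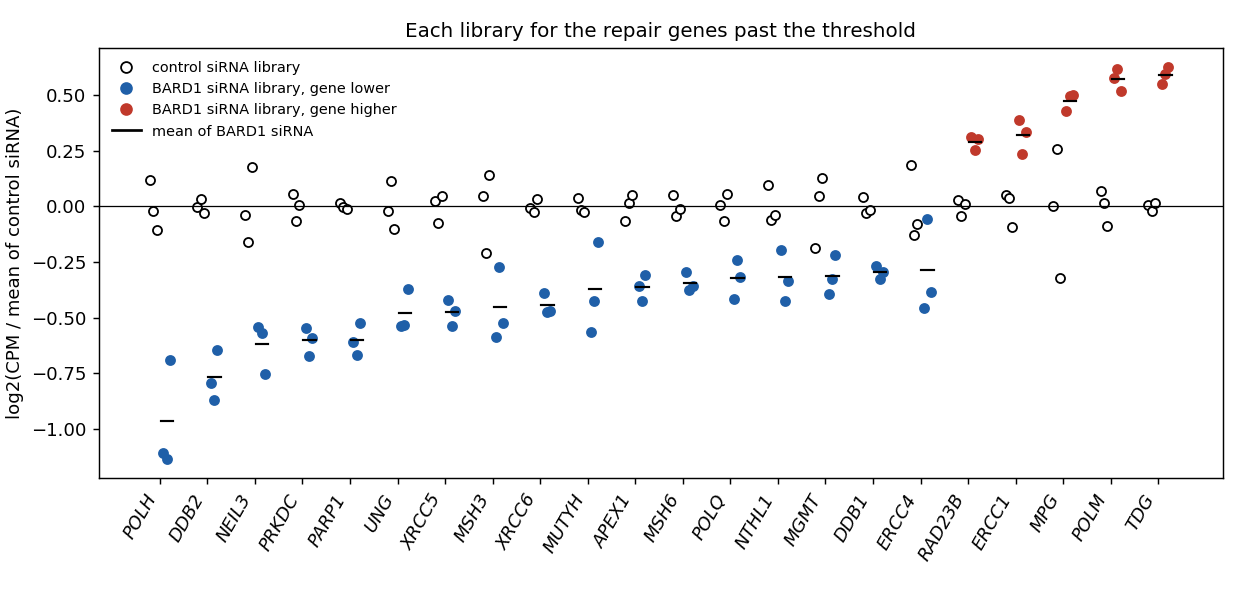
Each of the 6 libraries for the 22 called repair genes (x axis, ordered by change), as log2 of the CPM over the control siRNA mean (y axis). Open circles are control siRNA libraries, filled circles BARD1 siRNA libraries and short lines the BARD1 siRNA mean. Only ERCC4 has a BARD1 siRNA library above a control siRNA library among the genes that fell.

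Sequences just before the transcription start are shown for some falling and some rising members, because members that moved together invite a comparison of their promoters. These genes, and the motif marked in each 30-base stretch, were picked by hand and do not represent the other members. RefSeq promoters on GRCh38.p14 were found for 46 of the 51 genes, and not for NEIL2, POLB, PRKDC, SMUG1 and XRCC5. The 250 bases before each start were searched on both strands. Whole stretches are printed where no annotated exon lies in them, and 30 bases around 1 match elsewhere. For POLM the last 10 bases before the start, which lie in an annotated exon, are left out, so only 1 of its 4 SP1 matches is in the printed stretch. Capitals mark matches to the E2F letters TTTNGCGC, the NF-Y letters CCAAT, the SP1 letters GGGCGG and the NRF1 motif, or to their reverse complements. In the 30-base stretches capitals mark only the motif named for them. DDB2 (chr11:47214204-47214453, plus strand) and PARP1 (chr1:226408094-226408343, minus strand) fell, while POLM (chr7:44082541-44082780, minus strand) rose.
DDB2: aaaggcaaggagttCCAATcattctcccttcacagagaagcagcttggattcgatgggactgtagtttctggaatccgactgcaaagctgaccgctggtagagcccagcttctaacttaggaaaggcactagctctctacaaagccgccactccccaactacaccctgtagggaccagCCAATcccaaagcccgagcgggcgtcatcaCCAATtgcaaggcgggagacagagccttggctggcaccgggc
PARP1: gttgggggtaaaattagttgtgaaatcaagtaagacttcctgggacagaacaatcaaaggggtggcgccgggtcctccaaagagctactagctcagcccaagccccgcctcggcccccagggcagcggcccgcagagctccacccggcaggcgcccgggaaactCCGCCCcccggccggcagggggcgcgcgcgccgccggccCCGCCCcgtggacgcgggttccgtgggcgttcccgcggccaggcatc
POLM: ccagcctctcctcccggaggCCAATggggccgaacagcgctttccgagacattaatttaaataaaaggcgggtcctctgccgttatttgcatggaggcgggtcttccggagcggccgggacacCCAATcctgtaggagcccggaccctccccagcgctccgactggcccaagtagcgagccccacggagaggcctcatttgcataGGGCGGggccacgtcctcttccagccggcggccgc

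The short stretches hold the E2F letters of XRCC6 (chr22:41621081-41621110), the NRF1 match of POLH (chr6:43576023-43576052) and the NF-Y letters of TDG (chr12:103965763-103965792), all on the plus strand.
XRCC6: cagggatgcacTTTTGCGCatgtgcttaca
POLH: agccggcgctGCGCACGCGCccggcccgcc
TDG: ggggtgagcgtgATTGGgctgtcctacatc

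The E2F letters stood in 2 of the 15 promoters of members that fell (MSH3 and XRCC6), in 0 of 5 that rose and in 2.46% of the 10569 promoters of tested genes. CCAAT stood in 6 of the 15 that fell and in 4 of the 5 that rose (all but ERCC1), against 34.9% of the promoters of tested genes. The SP1 letters were found in 33 of 46 members and 67.7% of tested genes, and the NRF1 motif in 10 of 46 and 10.4%. By call, the NRF1 motif stood in 2 of the 15 that fell, 1 of the 5 that rose and 7 of the 25 not called. Further searches found the CHR letters TTTGAA in 3 members (8.21% of tested genes), the CREB/ATF letters TGACGTCA in 2 (2.81%) and the ETS letters CCGGAAG in 8 (15.8%). A match describes letters only, and these counts are too small to compare.

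Among the 10 DNA glycosylases, 4 fell (NEIL3, UNG, MUTYH and NTHL1), 2 rose (TDG and MPG) and 4 were not called. NEIL3, which removes oxidised bases and unhooks some interstrand crosslinks, stood at 26.9, 24.7 and 31.2 CPM with control siRNA and at 19, 18.6 and 16.4 CPM with BARD1 siRNA. The groups did not overlap, and NEIL3 fell 1.54-fold (log2 fold change −0.62, SE 0.11, adjusted p = 4.78e-06). UNG, the main enzyme that removes uracil from DNA, fell 1.39-fold, from 117, 128 and 110 CPM to 81.6, 82 and 91.5 CPM (log2 fold change −0.48, SE 0.06, adjusted p = 1.34e-08). It was the most abundant glycosylase per length in control cells, at 46.2 ± 3.55 FPKM (CPM per kilobase of gene length; SD, n = 3).

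TDG, which removes thymine mispaired with guanine and also acts in DNA demethylation, lies on chromosome 12 from 103965804 to 103988874 (GRCh38, as are all gene positions given). It measured 66.8, 65.6 and 67.3 CPM with control siRNA and 97.5, 101 and 103 CPM with BARD1 siRNA. The 6 libraries formed 2 tight groups, with a log2 fold change of 0.59 (SE 0.06, adjusted p = 3.36e-11). MPG, which removes alkylated purines, had more spread control values of 39.7, 47.5 and 31.8 CPM, all below the 53.4, 56 and 56.1 CPM of BARD1 siRNA. It rose 1.39-fold (log2 fold change 0.48, SE 0.10, adjusted p = 0.000167). The opposite-strand gene NPRL3 covers 27.3% of the exon bases of MPG and had more counts, and its log2 fold change was −0.18; its part in the MPG value was not tested. UNG and TDG, which can act on the same base, uracil, thus moved in opposite directions.

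MUTYH and NTHL1 fell by smaller amounts, and each call was lost on leaving out any one of several libraries. MUTYH, which removes adenine paired with oxidised guanine, went from 13, 12.5 and 12.4 CPM to 8.56, 9.42 and 11.3 CPM (log2 fold change −0.37, SE 0.15, adjusted p = 0.0361). Leaving out control siRNA replicate 1, 2 or 3 gave an adjusted p of 0.0922, 0.057 or 0.0508, and leaving out BARD1 siRNA replicate 1 or 2 gave 0.165 or 0.10. NTHL1, which removes oxidised pyrimidines, went from 23.1, 20.7 and 21 CPM to 18.8, 16.1 and 17.1 CPM (log2 fold change −0.32, SE 0.11, adjusted p = 0.0199). The NTHL1 call was lost without control siRNA replicate 1 (adjusted p = 0.0997) and without BARD1 siRNA replicate 2 or 3 (0.0993 and 0.053). Opposite-strand genes cover 14.1% of the exon bases of MUTYH (TOE1, log2 fold change −0.20) and 16.5% of those of NTHL1 (TSC2, 0.10), and each had more counts than the repair gene it overlaps.

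The other 4 glycosylases were not called. OGG1, which removes 8-oxoguanine, had a log2 fold change of −0.29 (95% interval −0.54 to −0.03, adjusted p = 0.0629). It passed without control siRNA replicate 3 (0.0493) or BARD1 siRNA replicate 3 (0.0447). NEIL2 stood just above the threshold, at −0.22 (interval −0.41 to −0.03, adjusted p = 0.0503), and passed in 7 of the 16 alternatives, 5 of them at 0.0421 to 0.0497 and the other two at 0.00964 and 0.0113. SMUG1, a further uracil glycosylase, and NEIL1 had values of 0.18 (interval −0.05 to 0.42) and 0.12 (interval −0.26 to 0.51). The opposite-strand gene MAN2C1 covers 26.4% of the exon bases of NEIL1, had more counts and had a log2 fold change of 0.33. For OGG1, opposite-strand CAMK1 covers 25% (log2 fold change 0.37) and TADA3, with more counts, 4.1% (0.00). Their part in these values was not tested.

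Of the 5 later factors of base excision only APEX1 changed. APEX1, the endonuclease that cuts at abasic sites, fell from 139, 147 and 151 CPM to 114, 109 and 118 CPM (log2 fold change −0.36, SE 0.06, adjusted p = 5.39e-07), with no overlap between the groups. POLB, the gap-filling polymerase, had a log2 fold change of 0.27 (interval 0.02 to 0.51, adjusted p = 0.0723), which passed without control siRNA replicate 3 at 0.0334. The ligase LIG3 had 55.3, 52.3 and 55.1 CPM with control siRNA and 57.2, 56.3 and 52.2 CPM with BARD1 siRNA, and its groups overlapped (log2 fold change 0.03, interval −0.13 to 0.18). The opposite-strand gene RFFL covers 29.1% of the exon bases of LIG3 and rose by 1.21 on the log2 scale; its part in the LIG3 value was not tested. Its scaffold XRCC1 had a log2 fold change of 0.00 (interval −0.22 to 0.21). APTX, which repairs aborted ligation ends, stood at −0.23 (adjusted p = 0.0991) and passed without control siRNA replicate 2, at 0.0483.

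PARP1, PARP2 and PARG write and erase poly(ADP-ribose) at strand breaks, and PARP1 alone of them was called. PARP1 (chromosome 1, 226360691 to 226408079) measured 441, 435 and 432 CPM in the controls and 285, 275 and 303 CPM after BARD1 silencing. Every BARD1 siRNA library was far below every control library, and PARP1 fell 1.51-fold (log2 fold change −0.60, SE 0.05, adjusted p = 3.81e-15). PARP2, the second polymerase activated by breaks, had 30.7 ± 1.53 CPM in control and 30.7 ± 0.832 CPM in BARD1-silenced cultures (SD, n = 3), with a 95% interval of −0.19 to 0.19 for the log2 fold change. The glycohydrolase PARG, which removes the polymer, stood at 0.06 (interval −0.12 to 0.24), and a near-copy held 10% and 16.1% as many counts as PARG in the 2 groups. The difference between the changes of PARP1 and PARP2 was not tested.

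The recognition factors of nucleotide excision repair went both ways: DDB2 and DDB1 fell, RAD23B rose, and XPC, CETN2, ERCC6 and ERCC8 were not called. DDB2, the subunit that binds ultraviolet lesions in chromatin (chromosome 11, 47214465 to 47239240), had 25.5, 26.2 and 25.1 CPM with control siRNA and 14.8, 14 and 16.4 CPM with BARD1 siRNA. The groups were well apart, and DDB2 fell 1.70-fold (log2 fold change −0.77, SE 0.11, adjusted p = 8.86e-08). Its partner DDB1, an adaptor of CUL4 ubiquitin ligases, fell 1.23-fold, from 321, 306 and 309 CPM to 259, 249 and 254 CPM (log2 fold change −0.30, SE 0.05, adjusted p = 1.47e-06).

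RAD23B, which stabilises XPC and carries ubiquitinated proteins to the proteasome, rose from 361, 344 and 357 CPM to 440, 422 and 437 CPM (log2 fold change 0.29, SE 0.05, adjusted p = 1.15e-06). XPC, the lesion sensor it binds, had a log2 fold change of −0.15 (interval −0.39 to 0.08). CETN2, the third protein of that complex, had 43, 42.6 and 50 CPM and 42.7, 38 and 42.3 CPM, with overlapping groups (log2 fold change −0.14, adjusted p = 0.19). ERCC6 and ERCC8, the factors that sense stalled RNA polymerase, stood at −0.07 (interval −0.36 to 0.22) and −0.30 (interval −0.58 to −0.02, adjusted p = 0.0754).

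Among the 6 core factors the nuclease partners ERCC1 and ERCC4 were called in opposite directions. ERCC1 rose from 46.1, 45.7 and 41.7 CPM to 58.2, 52.4 and 56.1 CPM without overlap (log2 fold change 0.32, SE 0.08, adjusted p = 0.00073). The opposite-strand gene CD3EAP covers 28.6% of its exon bases and had a log2 fold change of 0.07. ERCC4, the catalytic subunit that cuts 5′ of a lesion, had 24.3, 19.5 and 20.1 CPM with control siRNA and 15.5, 20.5 and 16.3 CPM with BARD1 siRNA. The groups of ERCC4 overlapped, its log2 fold change was −0.29 (SE 0.12, adjusted p = 0.0479), and the call was lost in 7 alternatives. Leaving out control siRNA replicate 1 gave an adjusted p of 0.30, and leaving out BARD1 siRNA replicate 1 or 3 gave 0.212 or 0.16.

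The helicases of TFIIH were not called. ERCC3 had 58.9, 60 and 60.6 CPM with control siRNA and 56.6, 56.6 and 52.2 CPM with BARD1 siRNA, which did not overlap although the difference missed the threshold (log2 fold change −0.12, adjusted p = 0.202). ERCC2 had 35.4, 39.6 and 38.1 CPM against 33.1, 32.3 and 34.2 CPM, again without overlap (log2 fold change −0.18, adjusted p = 0.0911). XPA, which verifies the lesion, stood at −0.23 (adjusted p = 0.122) and passed without control siRNA replicate 3, at 0.0199. ERCC5, the nuclease that cuts 3′ of a lesion, had 26, 27 and 11 counts with control siRNA and 15, 25 and 17 counts with BARD1 siRNA, too few for a narrow estimate (interval −1.03 to 0.80). The readthrough gene BIVM-ERCC5 covers 63.2% of the exon bases of ERCC5 on the same strand and was listed at 0 counts, so the level of ERCC5 depends on how shared reads were counted, which the labels do not state.

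All 5 mismatch repair genes had negative log2 fold changes, and MSH3 and MSH6 passed. MSH6, which recognises single-base mismatches, fell from 156, 146 and 149 CPM to 123, 116 and 117 CPM (log2 fold change −0.34, SE 0.06, adjusted p = 1.16e-06). MSH3, which recognises larger insertion loops, fell from 20.6, 17.2 and 21.9 CPM to 13.2, 16.5 and 13.8 CPM (log2 fold change −0.45, SE 0.12, adjusted p = 0.00211). Neither gene overlapped between the groups. The MutL genes MLH3, PMS1 and PMS2 stood at −0.26, −0.20 and −0.15, with adjusted p of 0.0896, 0.14 and 0.37. PMS2 is uncertain, since 11 near-copies in the table held 1216 counts over the control siRNA libraries, more than the 776 of PMS2.

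End joining held the most abundant members, and its genes differed in direction and call. The subunits of the DNA-dependent protein kinase, which binds broken ends first, fell: XRCC6 and XRCC5 (Ku70 and Ku80) and the catalytic subunit PRKDC. XRCC6 (chromosome 22, 41621119 to 41664048) had 820, 811 and 844 CPM with control siRNA and 629, 594 and 596 CPM with BARD1 siRNA. XRCC5 (chromosome 2, 216107464 to 216206303) had 582, 543 and 590 CPM against 427, 393 and 413 CPM. PRKDC had 743, 683 and 718 CPM against 490, 449 and 474 CPM. For each subunit all 3 BARD1 siRNA libraries lay below all 3 control siRNA libraries. The falls were 1.36-fold for XRCC6 (log2 fold change −0.44, SE 0.05, adjusted p = 7.85e-12), 1.39-fold for XRCC5 (−0.48, SE 0.05, adjusted p = 4.38e-12) and 1.52-fold for PRKDC (−0.60, SE 0.05, adjusted p = 1.22e-15).

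On the scale per length, XRCC6 and XRCC5 ranked first and second of the 51 genes in control cells, at 251 ± 5.16 and 105 ± 4.63 FPKM, and PRKDC ranked sixth at 46.4 ± 1.95 FPKM (SD, n = 3). The ratio of XRCC6 to XRCC5 was 2.34, 2.48 and 2.38 in the control siRNA libraries and 2.45, 2.51 and 2.40 in the BARD1 siRNA libraries, and these overlapped. The ratio of XRCC5 to PRKDC was 2.21, 2.24 and 2.32 in the controls and 2.46, 2.47 and 2.46 after BARD1 silencing, with no overlap. PRKDC was thus lower relative to XRCC5 in every BARD1 siRNA library. With 3 libraries per group an exact two-sided permutation test cannot go below 0.10.

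The later end-joining factors showed no fall that passed. XRCC4, LIG4, DCLRE1C, POLL and POLM were much scarcer than the kinase subunits, with SE of 0.11 to 0.15 against 0.05. The difference in change between these genes and the subunits was not tested. XRCC4 and LIG4, which form the ligase complex, had log2 fold changes of −0.10 (interval −0.33 to 0.12) and 0.10 (interval −0.15 to 0.35), and the nuclease DCLRE1C (Artemis) stood at 0.04 (interval −0.24 to 0.32). POLM, a polymerase that fills gaps at joined ends (chromosome 7, 44072247 to 44082540), rose 1.49-fold, from 18.3, 17.7 and 16.4 CPM to 26, 26.8 and 25.1 CPM. The groups were far apart (log2 fold change 0.57, SE 0.11, adjusted p = 1.46e-05). The related POLL stood at 0.34 (interval 0.04 to 0.64, adjusted p = 0.06) with overlapping groups, and it passed without control siRNA replicate 3 (0.0196) or BARD1 siRNA replicate 3 (0.0433). NHEJ1, which encodes the ligase cofactor XLF, was too low to test, with 2, 0 and 0 counts in control siRNA and 3, 3 and 1 counts in BARD1 siRNA libraries; 65.4% of its exon bases are shared with another gene on the same strand. POLQ, the polymerase of an alternative end-joining route that uses short homologies, fell from 51.1, 48.6 and 52.9 CPM to 38.1, 43.1 and 40.8 CPM without overlap (log2 fold change −0.32, SE 0.08, adjusted p = 0.000921).

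**Figure D3:**
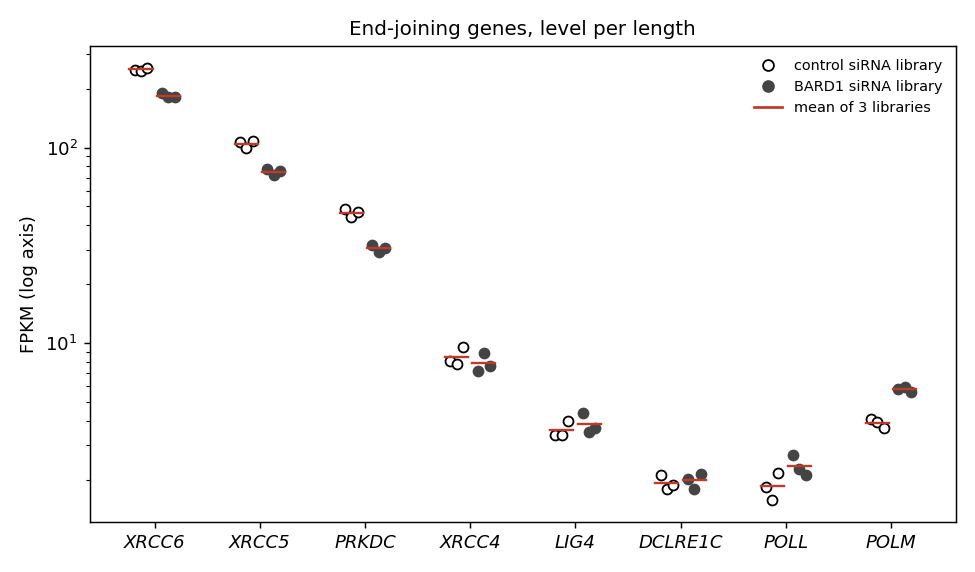
Level per length (FPKM, log y axis) of 8 end-joining genes (x axis) in each of the 6 libraries. Open circles are control siRNA, filled circles BARD1 siRNA and red lines means of 3 libraries. The 3 leftmost genes, XRCC6, XRCC5 and PRKDC, are lower in every BARD1 siRNA library, POLM is higher in every one, and XRCC4, LIG4, DCLRE1C and POLL overlap.

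Of the 4 translesion genes POLH alone was called, with the largest change of all members. POLH, the polymerase that copies past ultraviolet-induced pyrimidine dimers and is lost in the variant form of xeroderma pigmentosum, lies on chromosome 6 from 43576150 to 43615660. It had 35, 31.8 and 30 CPM with control siRNA and 15, 14.7 and 20 CPM with BARD1 siRNA. BARD1 siRNA replicate 3 was the highest of its group but stayed below every control library. The fall was 1.95-fold (log2 fold change −0.96, SE 0.11, adjusted p = 3.33e-10) and ranged from −1.12 to −0.88 over the alternatives. REV1, the scaffold that recruits the other translesion polymerases, had 49.5, 51.8 and 56.9 CPM against 53.5, 59.2 and 53.9 CPM, with overlap (log2 fold change 0.08, interval −0.08 to 0.23). REV3L, the catalytic subunit of polymerase zeta, had 48.6, 43.9 and 48.8 CPM against 45, 44.5 and 40.5 CPM, also with overlap (−0.12, interval −0.29 to 0.04). POLK, a polymerase for bulky guanine adducts, stood at −0.08 (interval −0.29 to 0.13).

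MGMT, which directly removes alkyl groups from guanine, was expressed at 30.1, 35.3 and 37.4 CPM with control siRNA and 26.1, 27.3 and 29.4 CPM with BARD1 siRNA. The groups came close without overlapping, and MGMT fell 1.24-fold (log2 fold change −0.31, SE 0.10, adjusted p = 0.00728). Without control siRNA replicate 3 the adjusted p was 0.055.

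Direction can also be set out by level. Of the 9 members with a mean of at least 100 CPM, 8 fell and RAD23B rose, with a median log2 fold change of −0.44. Over all 2385 genes at that level 30.7% were called lower and 34.3% higher, with a median of 0.01. Of the 41 tested members below 100 CPM 9 fell (22%) and 4 rose (9.76%), with a median of −0.12. Over all 7436 genes at 10 to 100 CPM, a range that leaves out the few members below 10 CPM, 24.8% were called lower and 26.6% higher. Their median was −0.001. The share of these members that fell was thus not above that of all genes in that range, while the share that rose was smaller. The test finds small changes more readily at high counts, and a missed threshold among the scarce members does not show that they did not differ.

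**Figure D4:**
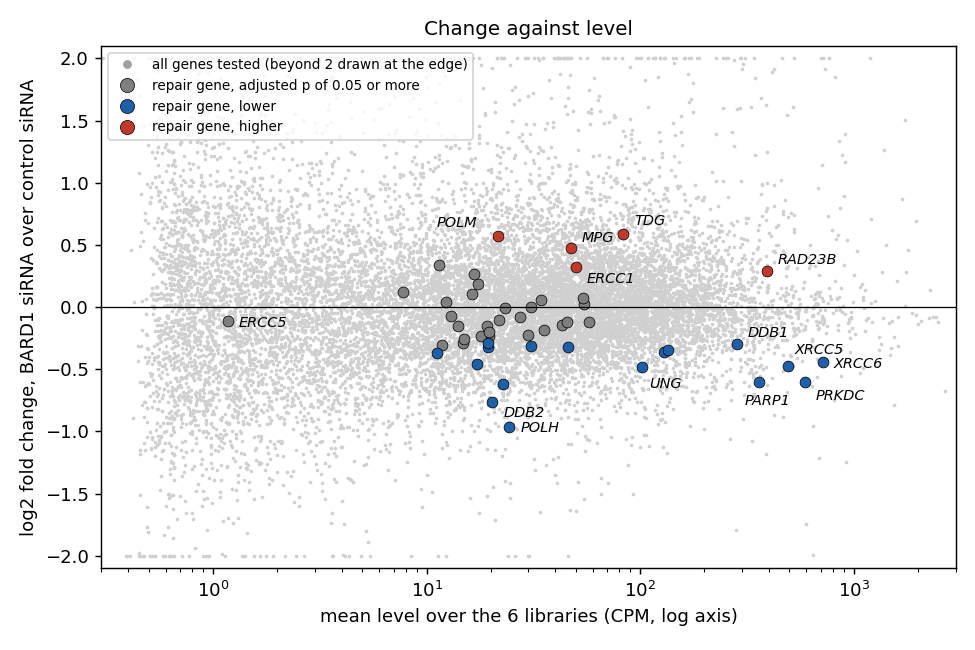
Log2 fold change (y axis, BARD1 siRNA over control siRNA) against the mean CPM over the 6 libraries (x axis, log scale). Small grey points are all 15271 genes tested and large points the 50 tested repair genes, coloured by call. At 100 CPM or more 8 repair genes lie below 0 and RAD23B above.

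Other genes of the same pathways were taken from lists of 76 genes, chosen with earlier results of these data known. Of 73 tested 32 fell and 8 rose, with a median log2 fold change of −0.13, which is 43.8% lower and 11% higher against 20.3% and 22% of all genes tested. The counts below are to be read against those same shares. For base excision and strand breaks 8 of 16 fell and 2 rose: HPF1, which directs PARP1 to serine, fell by 0.69, the flap endonuclease FEN1 by 0.53 and the ligase LIG1 by 0.51 on the log2 scale. For nucleotide excision 8 of 18 fell and 3 rose, with the single-strand binding subunits RPA2 and RPA1 falling by 0.50 and 0.47 and the ligase scaffold CUL4B by 0.45.

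Of 13 tested partners of mismatch repair 10 fell and 0 rose, with a median of −0.36. Most of this list, PCNA and the POLD and RFC genes, also acts in DNA replication, as do FEN1, LIG1 and the RPA genes named above. Whether these genes fell as repair or as replication genes was not tested. The sliding clamp PCNA fell by 0.69, HMGB1, a chromatin protein with many pseudogenes whose value is therefore uncertain, by 0.64, and the clamp loader subunit RFC3 by 0.62. Of 10 tested partners of end joining 1 fell and 1 rose. PAXX, which binds Ku, fell by 0.27 with overlapping groups, and its call was lost without control siRNA replicate 2 (adjusted p = 0.0536) or BARD1 siRNA replicate 1 (0.0865). SHLD3, a shieldin subunit, rose by 0.73 from 123 to 197 counts over a group, and its call was lost without control siRNA replicate 3 (adjusted p = 0.171) or BARD1 siRNA replicate 1, 2 or 3 (0.0614, 0.074 and 0.053). Of 16 partners of translesion synthesis 5 fell and 2 rose. The fork-remodelling ligase HLTF fell by 0.56, the primase PRIMPOL by 0.45 and the deubiquitinase USP1, which acts on PCNA, by 0.33. The PRIMPOL call was lost without control siRNA replicate 1 (adjusted p = 0.0509) or BARD1 siRNA replicate 3 (0.0707).

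Genes of DNA replication and S phase were also lower. Of a list of 24 of them 22 fell (91.7%) and 0 rose, against 20.3% lower and 22% higher of all genes tested. This list too was chosen with earlier results of these data known. The median log2 fold change of the 24 genes was −0.57. Their summed level was 3489 to 3591 CPM in control and 2395 to 2498 CPM in BARD1-silenced cultures. Whether this bears on the repair genes that fell was not tested.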

How the data were processed

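Poly(A) RNA was sequenced, per the labels' protocols, and the authors deposited raw read counts per gene. HISAT2, CASAVA and GRCh38 are named by the submitters' processing notes; their versions, the counting program and any use of strand were not given in the sources used here. Promoters are from RefSeq. A gene length column, deposited by the authors in bases, equals the exon union of GENCODE 29 for all 51 members and served for FPKM. Counts were tested with edgeR 4.0.16 in R 4.3.3: filterByExpr (minimum count 10), TMM factors, robust quasi-likelihood test on the group alone, two-sided, Benjamini-Hochberg over 15271 genes, threshold 0.05. The SE is the absolute log2 fold change over the root of F. CPM use TMM-scaled library sizes. No 2 libraries were identical, and the biological coefficient of variation was 7.19%.

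The members and lists were chosen with earlier results of these data known. All members are named; values per library are given for called members, those too low to test and the 6 uncalled members of highest mean CPM above 20, a ranking chosen after the data were seen. Of partner genes, up to 3 called per list with the largest change are named. Exon bases are shared with another tested gene by 22 members; for 13 members an overlapping gene had the higher count, and without a stated strand setting their reads cannot be told apart. Alternatives were RLE, upper-quartile or no scaling factors, DESeq2 1.42.0, limma-voom 3.58.1, no robust estimation, other low-count filters, protein-coding genes only, a replicate block, and leaving out each library. One overlapping gene is not reported here.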

Additional observations from a re-analysis of the deposited data

How the results depend on the processing

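The count of repair genes called lower was 17, and it moved beyond 1.5 times under 2 of the scalings: 27 using upper-quartile factors and 26 using no factors beyond library size, where the median of all genes shifted by −0.07 and −0.06 (log2). Both added OGG1, NEIL2, ERCC2, ERCC3, ERCC8, XPA, MLH3, PMS1 and APTX, the first also CETN2, and all 22 calls of the main analysis were shared. Over the other alternatives 14 to 18 members fell and 5 to 7 rose, and the members' median lay between −0.23 and −0.16 over all. Leaving out 1 library gave 14 to 17 lower and 5 to 7 higher members, 5655 to 6437 calls over all genes and a median of −0.21 to −0.17. Besides the libraries named above, the calls of ERCC4 and MUTYH were lost with DESeq2 (adjusted p = 0.0868 and 0.0516) and with no filter on low counts (0.0636 and 0.061), and that of ERCC4 with limma-voom (0.0549) and without robust estimation (0.0569); the causes were not tested. No effect shared by same-numbered replicates was seen: deviations of same-numbered libraries from their group means correlated at −0.01, −0.01 and −0.02. These values cannot show whether the cultures were set up in pairs, which the labels do not state. A replicate block called 17 members lower and 5 higher, the same 22 genes, and 6512 genes in all against 6462. At these depths ERCC5 had 11 to 27 counts per library and NHEJ1 at most 3.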
